A study of Mus musculus with 8 samples.

Results

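Methylation of liver DNA was examined around 8 genes of the acute-phase and inflammatory response in C57BL/6J mice on a high-fat diet. The genes were Saa1, Saa2, Saa3 and Saa4 in 1 cluster, and Lcn2, Stat3, Nfkb1 and Rela. Every HpaII site listed in all 8 samples was taken within 5 fixed mm9 windows around them. From the first to the last listed site, these spanned chr7:53940523-54019565 (Saa cluster), chr2:32235586-32249542 (Lcn2), chr11:100740685-100808862 (Stat3), chr3:135241328-135361934 (Nfkb1) and chr19:5631614-5654885 (Rela). The windows held 345 of the 1310003 listed sites, with 74 in the Saa cluster, 29 at Lcn2, 76 at Stat3, 108 at Nfkb1 and 58 at Rela. The windows were set by position. One group of 4 mice ate a high-fat diet with lingonberries (lingonberry group), and the other 4 ate the high-fat diet alone (HFD). All 8 were therefore on a high-fat diet, and the labels give no age, sex or duration. Whole liver holds several cell types, so a site's value is a mixture over them, and no marker of the tissue could be read from DNA methylation here.

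In the acute-phase response, hepatocytes answer interleukin-6 and interleukin-1 by secreting large amounts of a small set of proteins. Interleukin-6 acts through the transcription factor STAT3, and interleukin-1 and bacterial products act through NF-kappaB, of which RelA and p50 (made from the Nfkb1 product) are the classical subunits. Serum amyloid A proteins, carried on high-density lipoprotein, and lipocalin 2, which binds bacterial siderophores, are among the targets. Methylation of CpG-rich promoters is generally low in tissues whether or not the gene is active, while CpG-poor promoters of liver genes can differ between tissues.

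HELP-tagging reads methylation at CCGG. HpaII cuts that sequence where its CpG is unmethylated, and MspI cuts it either way, so each site has a number of HpaII tags and a number of tags in an MspI reference. The authors' m-score places their balance on a scale from 0, where no HpaII tag was found (methylated), to 100, where no MspI tag was found (unmethylated). Since that reference carries as many tags as the library it is set against, a score compares a site with the rest of its own library. The samples held 6121989 to 16076961 HpaII tags in the lingonberry group and 5877080 to 7428108 in HFD, and the deepest libraries were lingonberry libraries. A site needed at least 10 MspI tags to enter the means below, which 267 of the 345 sites had (55, 22, 60, 82 and 48 in the order above).

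Only promoters that hold a CCGG can be read by this assay. The 250 bases before the transcription start (RefSeq, GRCm38.p6, gene strand, CCGG in capitals) show which of these could be. Saa1 and Saa2 are shown because their promoters are nearly identical, Lcn2 because it has no site, and Stat3 and Rela because their sites lie in the clusters of high m-score described below. The last sequence belongs to 1110008P14Rik, the neighbour of Lcn2 whose promoter holds the CpG-rich stretch of that window.
Saa1: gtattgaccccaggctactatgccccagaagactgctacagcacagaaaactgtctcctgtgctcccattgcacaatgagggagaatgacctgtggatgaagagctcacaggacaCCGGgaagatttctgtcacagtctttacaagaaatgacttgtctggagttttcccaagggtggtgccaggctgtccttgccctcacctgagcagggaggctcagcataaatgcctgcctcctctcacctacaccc
Saa2: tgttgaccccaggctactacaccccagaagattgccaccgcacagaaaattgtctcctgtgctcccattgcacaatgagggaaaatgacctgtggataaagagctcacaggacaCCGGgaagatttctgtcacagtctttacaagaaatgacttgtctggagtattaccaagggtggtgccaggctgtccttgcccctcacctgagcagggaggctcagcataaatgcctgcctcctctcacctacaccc
Lcn2: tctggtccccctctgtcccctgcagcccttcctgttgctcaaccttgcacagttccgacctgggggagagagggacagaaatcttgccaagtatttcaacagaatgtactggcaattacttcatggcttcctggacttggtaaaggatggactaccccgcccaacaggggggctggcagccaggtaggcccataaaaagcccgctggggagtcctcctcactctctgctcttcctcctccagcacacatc
Stat3: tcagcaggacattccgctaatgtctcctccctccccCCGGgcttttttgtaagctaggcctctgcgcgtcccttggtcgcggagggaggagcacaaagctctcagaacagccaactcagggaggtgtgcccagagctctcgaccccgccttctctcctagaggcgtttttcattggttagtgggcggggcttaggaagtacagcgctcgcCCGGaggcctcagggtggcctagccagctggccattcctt
Rela: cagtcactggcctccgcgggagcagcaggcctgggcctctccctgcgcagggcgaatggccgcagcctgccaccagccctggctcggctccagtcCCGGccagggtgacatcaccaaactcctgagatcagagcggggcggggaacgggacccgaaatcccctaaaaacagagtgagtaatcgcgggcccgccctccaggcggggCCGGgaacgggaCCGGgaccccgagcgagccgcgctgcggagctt
1110008P14Rik: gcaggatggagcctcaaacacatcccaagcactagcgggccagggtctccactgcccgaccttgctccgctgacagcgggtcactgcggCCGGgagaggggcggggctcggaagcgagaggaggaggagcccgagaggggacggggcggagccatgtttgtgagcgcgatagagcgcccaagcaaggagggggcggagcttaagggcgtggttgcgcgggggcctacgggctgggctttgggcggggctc
In the window of 300 bases that adds the first 50 bases after the start, there were 2 CpGs in Saa1, 3 in Saa2, 5 in Saa3, 1 in Saa4 and 3 in Lcn2, against 15 in Stat3 and 31 in Rela. CCGG occurred in 52.8% of the 32851 mouse promoter windows, and 2 or more in 32.6%. The windows of Saa3, Saa4 and Lcn2 had none, so the promoters of these genes gave no value here. The letters TTCNNNGAA, which read the same on both strands and are the core bound by STAT dimers, occurred in the 250 bases of none of the 7 member promoters searched and in 7.02% of all promoters. The NF-kappaB consensus (GGGRNNYYCC, where R is A or G, Y is C or T and N any base), searched on both strands, was also in none of the 7, and in 7.25% of all promoters. Both searches took exact matches in these 250 bases only. Binding sites that differ from the pattern or lie further away would be missed, so a lack of such sites cannot be read from them.

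The annotation in use was of another build, so sites were tied to promoters by the spacing of their CCGGs alone. The spacing in each promoter was looked up among the mm9 positions of its own window, and each match used below was the only one in that window. By this rule Saa1 had sites 135 bases before the start (chr7:53998484) and 46 after it (chr7:53998304), and Saa2 had sites 136 before (chr7:54007069) and 46 after (chr7:54007250). Stat3 had sites 214 (chr11:100801067) and 40 bases before the start (chr11:100800893). Rela had 4, at 155 (chr19:5637388), 45 (chr19:5637498) and 33 bases before (chr19:5637510) and 10 after the start (chr19:5637552). The Rela pattern occurred 1 time on its chromosome, whereas the spacings of Saa1, Saa2 and Stat3 occurred 43, 41 and 60 times on theirs, so these 3 rest on the window. Nfkb1 was not placed. Whether the other sites lie in exons, introns or between genes was not assigned.

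**Figure D1:**
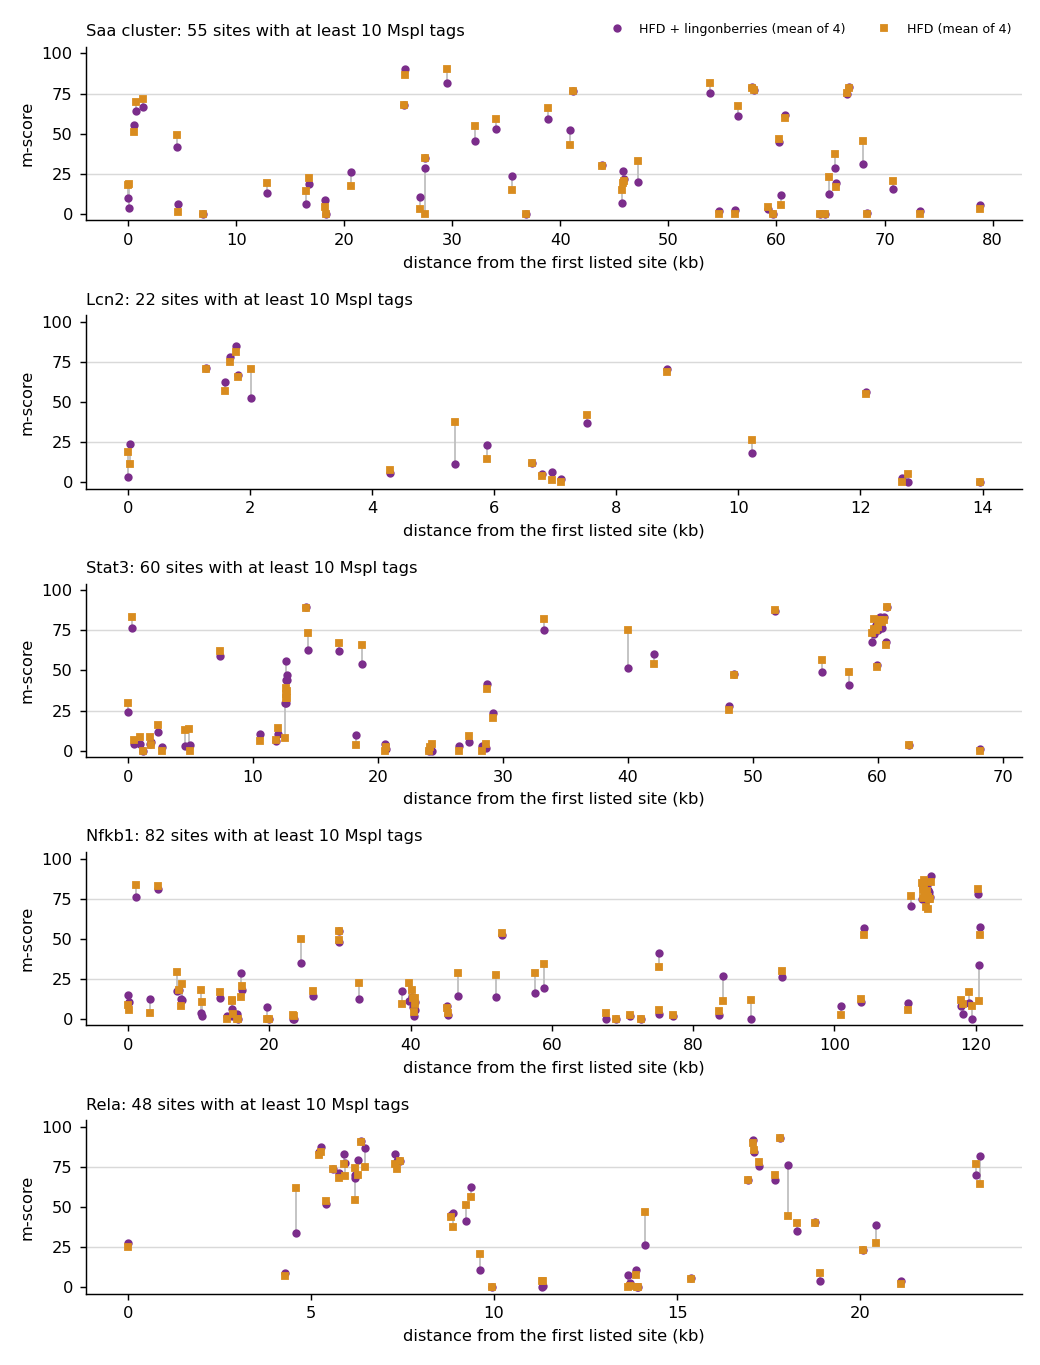
Mean m-score of each of the 267 sites with at least 10 MspI tags in the 5 windows, by distance from the first listed site of the window in kb, for the lingonberry group (circles, mean of 4) and HFD (squares, mean of 4), with a line joining the 2 means of a site. High sites of the Lcn2, Stat3, Nfkb1 and Rela windows gather in dense groups, while those of the Saa cluster are scattered.

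The 5 windows held a mixture of methylated and unmethylated sites. Over all 8 samples, 137 of the 267 sites had a mean m-score below 25, 79 lay from 25 to 75 and 51 were at 75 or above (called methylated, intermediate and unmethylated sites). The share at 75 or above was 19.1%, against 11.7% of all 920211 sites of that MspI depth. Sites with 5 or more other sites within 500 bp were at 75 or above in 50% of cases, against 52.1% for all such sites. The windows hold genes and their promoters, and no test was made of these shares.

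The Saa cluster differed in layout from the other windows. None of its 7 unmethylated sites lay in a cluster of at least 5 sites, whereas 35 of the 44 unmethylated sites of the Lcn2, Stat3, Nfkb1 and Rela windows did. Its only cluster, 8 sites over 1489 bp, was methylated, with a mean m-score of 15.2 ± 2.98 (SD, n = 4) in the lingonberry group and 14.6 ± 5.25 (SD, n = 4) in HFD. Of its 55 sites, 30 were below 25 and 18 between 25 and 75. This layout is a description of the window, given with no test.

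Saa1 and Saa2 encode the main acute-phase serum amyloid A proteins of the liver and are transcribed away from each other. Their promoter sites had high m-scores in both diets, with group means from 74.4 to 79.0. At the Saa1 site 135 bases before the start, the m-scores were 66.6, 85.2, 72.8 and 84.0 in the lingonberry group and 80.4, 80.1, 82.4 and 66.9 in HFD. The groups overlapped, and the means were 77.2 ± 8.98 (SD, n = 4) and 77.4 ± 7.11 (SD, n = 4). The HpaII tags behind them were 29, 44, 14 and 41.5 against 23, 21, 21.5 and 13.5. The site 46 bases after the start had a mean of 78.9 ± 4.78 (SD, n = 4) against 78.3 ± 4.31 (SD, n = 4). At the matching Saa2 sites the means were 74.4 ± 10.6 and 75.3 ± 9.99 before the start and 79.0 ± 4.79 and 78.3 ± 4.31 after it (SD, n = 4 each). The 4 differences between diets, lingonberry minus HFD, lay between -0.92 and 0.75, each smaller than its SE, the smallest of which was 3.12.

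The values of the 2 genes are not independent of each other. At the site after the start, Saa1 and Saa2 carried equal HpaII tags in 7 of 8 samples, and 287 and 288 tags in all. The fractional values above come from tags divided between sites of the same sequence. The promoter windows were identical at 287 of 300 bases when aligned. Counting the CCGG after the start and the bases to its left, all 27 bases were the same in both genes. At the CCGG before the start, counted in the same way, 26 of 27 were to the left and 27 of 27 to the right. The left stretches are given because they show how little sequence separates the tags of the 2 genes.
Saa1 before the start: gtggatgaagagctcacaggacaCCGG
Saa2 before the start: gtggataaagagctcacaggacaCCGG
Saa1 and Saa2 after the start: gagacaccaggtgagaggcagatCCGG
The sites after the start therefore give a joint level for both genes. The sites before the start were separable in part, with Saa2 tags of 34, 45, 10 and 38.5 in the lingonberry group and 25, 21, 21.5 and 11.5 in HFD, close to those of Saa1 given above.

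The other unmethylated sites of the Saa cluster stood alone or in pairs. Saa3, expressed largely outside hepatocytes as well as in liver, and Saa4, the constitutive member, had no promoter site. The site with the most HpaII tags in the window, chr7:53970018, had no other site within 500 bp and 354 tags in all. Its m-scores were 71.5, 88.1, 82.3 and 84.1 in the lingonberry group and 92.8, 87.4, 89.8 and 90.7 in HFD. Only the second lingonberry sample lay within the HFD range. The mean was 81.5 ± 7.13 (SD, n = 4) against 90.2 ± 2.25 (SD, n = 4), a difference of -8.69 ± 3.57 (SE), with a limma p of 0.0454 and an adjusted p of 0.873 over all sites. HpaII tags per 1000000 there were 3.98 ± 1.43 (SD, n = 4) against 7.20 ± 1.74 (SD, n = 4). A second site without neighbours, chr7:53994350, had 75.4 ± 4.06 against 81.6 ± 4.08 (SD, n = 4 each), also a difference that did not pass (limma adjusted p 0.873). The site of the cluster with the smallest p, chr7:53967999, had 2, 1, 2 and 2 HpaII tags in the lingonberry group and none in HFD. Its 7 tags in all set a mean m-score of 28.7 ± 13.1 (SD, n = 4) against 0, and limma gave an adjusted p of 0.873. By the mean over all 8 samples, the highest m-score of the cluster among sites with at least 10 MspI tags was at chr7:53966123, with 90.4 ± 1.45 against 86.7 ± 3.42 (SD, n = 4 each).

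Lcn2 itself could not be read at its promoter, and the CpG-rich stretch of its window belonged by the spacing match to 1110008P14Rik. That promoter's CCGG pattern, which left 1 site unlisted, occurred 1 time on the chromosome. The cluster of 7 sites over 727 bp (chr2:32236869-32237595) had a mean m-score of 65.6, 63.3, 71.2 and 72.6 in the lingonberry group and 75.4, 66.8, 68.2 and 67.8 in HFD. The groups overlapped, with 68.2 ± 4.44 (SD, n = 4) and 69.6 ± 3.94 (SD, n = 4). Its site with the most tags, chr2:32237355, had 84.7 ± 1.57 against 81.3 ± 6.03 (SD, n = 4 each). A second cluster of 5 sites was methylated, with 12.5 ± 3.12 against 11.7 ± 5.06 (SD, n = 4 each).

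At the edge of the first of these clusters, chr2:32237595 lies 161 bases before the 1110008P14Rik start. Its m-scores were 47.5, 45.6, 56.2 and 61.7 in the lingonberry group and 73.8, 63.0, 74.1 and 72.5 in HFD. Each lingonberry value lay under the lowest HFD value. The mean was 52.7 ± 7.56 (SD, n = 4) against 70.9 ± 5.30 (SD, n = 4), a difference of -18.1 ± 4.43 (SE), with a limma p of 0.00469 and an adjusted p of 0.873. The tags behind it were few, 12, 7, 6 and 12 against 13, 8, 11 and 13, and HpaII tags per 1000000 were 0.901 ± 0.220 against 1.67 ± 0.304 (SD, n = 4 each). The neighbouring promoter site 42 bases after the start, chr2:32237393, had 67.1 ± 17.1 against 65.4 ± 11.1 (SD, n = 4 each). The unmethylated class was small in this window, with 2 of 22 sites at 75 or above and 13 below 25.

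Stat3 encodes the transcription factor that carries the interleukin-6 signal. Its promoter lay in an unmethylated cluster of 12 sites over 1199 bp (chr11:100800240-100801438). The cluster's mean m-score was 74.8, 73.6, 76.8 and 76.8 in the lingonberry group and 75.3, 74.6, 77.3 and 77.8 in HFD. The ranges were nearly the same, and the means were 75.5 ± 1.56 (SD, n = 4) and 76.3 ± 1.55 (SD, n = 4). The difference was -0.76 ± 1.37 (SE), with a limma p of 0.590 and an adjusted p of 0.919 over all clusters. Within it, the promoter site 214 bases before the start had 76.6 ± 7.23 against 80.1 ± 5.48 and the site 40 bases before it 83.0 ± 2.01 against 81.6 ± 4.51 (SD, n = 4 each). The site with the most tags, chr11:100800777, had 384 tags in all and 82.5 ± 2.36 against 81.4 ± 5.34 (SD, n = 4 each). The sites of the cluster were not alike, with means over all samples from 52.8 to 89.4.

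The rest of the Stat3 window was mixed. A first cluster of 8 sites had a mean m-score of 18.0 ± 4.85 against 22.1 ± 4.29 and a second of 9 sites 31.4 ± 8.60 against 26.5 ± 5.09 (SD, n = 4 each). The second holds the Stat3 site with the smallest p, chr11:100753219, with m-scores of 44.8, 14.9, 33.7 and 24.6 in the lingonberry group and 5.38, 5.80, 6.44 and 15.0 in HFD. The lowest lingonberry sample was below the highest HFD sample, and the mean was 29.5 ± 12.8 against 8.16 ± 4.60 (SD, n = 4 each; limma p 0.0416, adjusted p 0.873). It had 46 tags in all, of which 23 were from the first lingonberry library, the deepest of the 8. Next to it lie 5 sites spaced 33 bases apart (chr11:100753287 to chr11:100753419), 4 of which carried divided tags. Unmethylated sites without neighbours were at chr11:100773942, with 75.5 ± 4.91 against 82.2 ± 3.13, and at chr11:100792432, with 87.2 ± 4.80 against 87.7 ± 3.39 (SD, n = 4 each). At the first of these, the lingonberry samples all lay under the HFD range (limma p 0.0503, adjusted p 0.873).

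The Nfkb1 window, the longest, held the largest unmethylated cluster of the 5 windows, with 19 sites over 1225 bp (chr3:135353754-135354978). Nfkb1 encodes p105, the precursor of the p50 subunit. The cluster's mean m-score was 81.6, 80.6, 79.8 and 84.7 in the lingonberry group and 82.3, 77.5, 78.2 and 80.1 in HFD. The groups overlapped, with 81.7 ± 2.14 (SD, n = 4) and 79.5 ± 2.17 (SD, n = 4), a difference of 2.11 ± 1.55 (SE; limma p 0.205, adjusted p 0.783). In it, 17 of the 19 sites had a mean at 75 or above, and site means ran from 72.0 to 90.9. The window as a whole was mostly methylated, with 53 of its 82 sites below 25, none of them in this cluster. Its other 3 clusters had mean m-scores of 15.4 ± 6.19 against 18.998 ± 6.69, 9.25 ± 6.20 against 7.62 ± 3.64 and 8.32 ± 2.17 against 13.4 ± 6.82 (SD, n = 4 each).

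The Nfkb1 sites with small unadjusted p had differences of both signs. Within the unmethylated cluster, chr3:135354148 had m-scores of 82.8, 87.0, 87.1 and 85.0 in the lingonberry group and 79.7, 76.7, 80.4 and 77.2 in HFD, with no overlap. The mean was 85.5 ± 2.04 against 78.5 ± 1.81 (SD, n = 4 each), and the limma p of 0.00254 was the smallest of the 345 sites, with an adjusted p of 0.873. The site with the most tags in the window, chr3:135354378, lies 230 bases away and had 74.9 ± 6.07 against 69.9 ± 14.6 (SD, n = 4 each). At the far end of the same cluster, chr3:135354978 was higher in all lingonberry samples (89.1 ± 0.734 against 85.2 ± 2.20, SD, n = 4 each). At its near end, chr3:135353754 had the opposite sign (74.9 ± 7.48 against 84.9 ± 2.64, SD, n = 4 each). Neither passed the adjusted test (limma adjusted p 0.873 for both). The 2 unmethylated sites without neighbours, chr3:135242495 and chr3:135245512, had 76.0 ± 11.7 against 83.3 ± 5.77 and 81.0 ± 4.03 against 82.9 ± 4.19 (SD, n = 4 each).

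Rela, encoding the p65 subunit, had the least methylated window of the 5. Its mean m-score was 49.0 ± 1.60 in the lingonberry group and 47.6 ± 1.83 in HFD (SD, n = 4 each), and 14 of its 48 sites were below 25. The promoter lay in a cluster of 16 sites over 1482 bp (chr19:5636817-5638298), whose mean m-score was 71.8, 75.6, 73.7 and 79.4 in the lingonberry group and 72.5, 72.2, 63.4 and 71.3 in HFD. The third HFD sample was the lowest of the 8, and the first lingonberry sample lay inside the HFD range. The means were 75.1 ± 3.24 and 69.9 ± 4.34 (SD, n = 4 each), a difference of 5.25 ± 2.47 (SE), with a limma p of 0.0625 and an adjusted p of 0.715. This was the smallest p of the 14 clusters. Its summed HpaII tags per 1000000 were 52.9 ± 2.70 against 43.7 ± 6.32 (SD, n = 4 each), a difference on the log2 scale of 0.28 ± 0.10 (SE; limma p 0.0220, adjusted p 0.435), where 8.64% of all clusters were higher at an unadjusted p below 0.05 on that scale.

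The sites of the Rela promoter were unequal. At chr19:5637388, 155 bases before the start and with 674 tags the deepest of all 345 sites, the m-scores were 75.6, 72.3, 74.0 and 62.3 in the lingonberry group and 71.0, 72.9, 65.0 and 62.8 in HFD. The groups overlapped across nearly their whole range, with means of 71.1 ± 5.99 and 67.9 ± 4.78 (SD, n = 4 each). The sites 33 bases before and 10 after the start had 83.1 ± 4.27 against 76.6 ± 8.59 and 77.7 ± 6.24 against 69.4 ± 13.0 (SD, n = 4 each). The site 45 bases before the start had 9 MspI tags and 0 to 4 HpaII tags a sample, too few to give a level (22.8 ± 25.0 against 15.2 ± 17.6, SD, n = 4 each). At 627 bases before the cluster, chr19:5636190 had m-scores of 39.3, 27.4, 53.7 and 14.03 in the lingonberry group and 69.9, 67.0, 55.0 and 56.6 in HFD. All lingonberry samples were below all HFD samples (33.6 ± 16.9 against 62.1 ± 7.42, SD, n = 4 each; limma p 0.0140, adjusted p 0.873), with 29 tags in all. Downstream of the cluster, chr19:5638919 had the opposite order without overlap (83.0 ± 0.601 against 76.6 ± 4.39, SD, n = 4 each; limma p 0.0243, adjusted p 0.873), on 402 tags. The largest difference of the 267 sites was at chr19:5649646, in the last cluster of the window, with m-scores of 82.1, 62.4, 89.1 and 70.5 in the lingonberry group and 16.5, 45.1, 48.4 and 67.0 in HFD. The groups overlapped, as the fourth HFD sample was above the second lingonberry sample. The mean was 76.0 ± 11.9 against 44.2 ± 20.9 (SD, n = 4 each), a difference of 31.8 ± 11.2 (SE; limma p 0.0256, adjusted p 0.873), on 82 tags. Among sites with a mean of 10 HpaII tags or more its limma p was 0.00706, with an adjusted p of 0.875. In that fit the limma p rose to 0.0227 at chr3:135354148 and to 0.00993 at chr2:32237595. It fell to 0.01775 at chr7:53970018 (adjusted p 0.875 for each). The other clusters of the window had 64.1 ± 7.12 against 63.4 ± 6.34 (11 sites), 29.5 ± 4.84 against 30.0 ± 5.78 (7 sites) and 8.01 ± 3.23 against 9.31 ± 3.45 (6 sites; SD, n = 4 each).

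**Figure D2:**
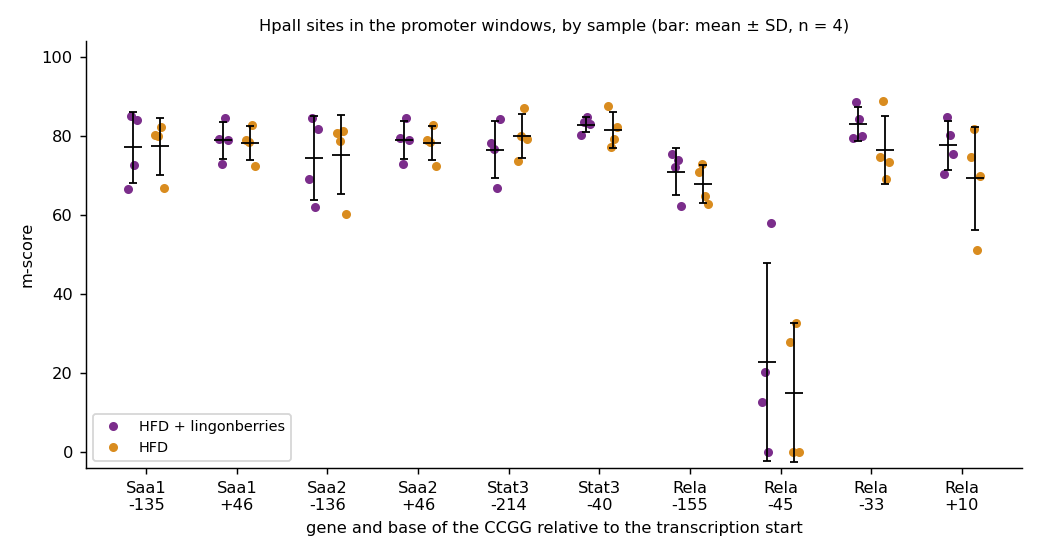
The m-score of each sample at the 10 HpaII sites placed in the promoter windows of Saa1, Saa2, Stat3 and Rela, labelled by the base of the CCGG relative to the start (points: samples; bars: mean ± SD, n = 4). Apart from the Rela site 45 bases before the start, which had 9 MspI tags, group means lie between 67.9 and 83.1.

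**Figure D3:**
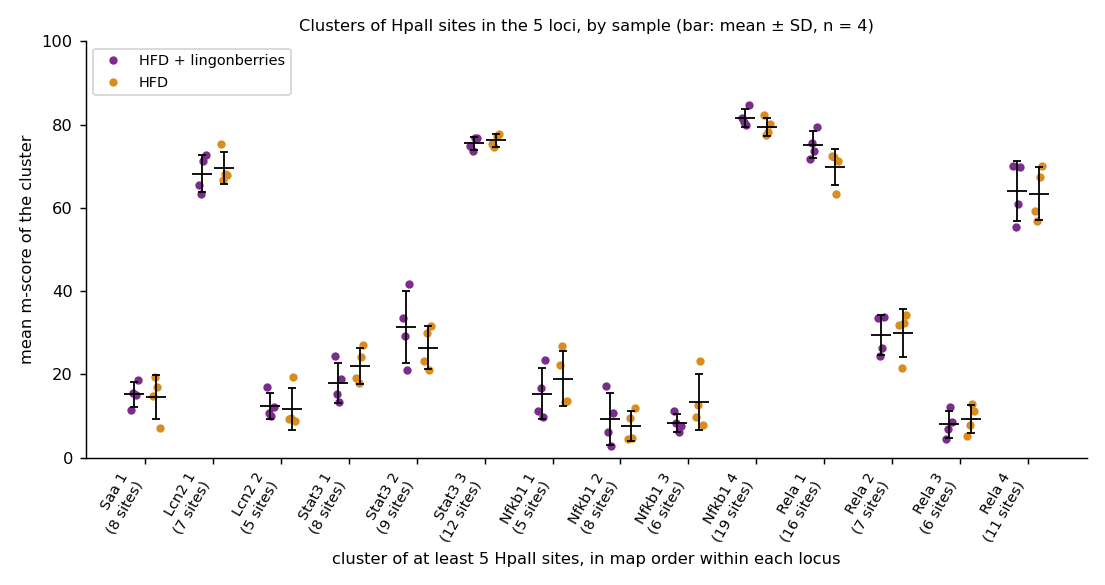
Mean m-score per sample of the 14 clusters of at least 5 sites in the 5 windows, in map order (points: samples; bars: mean ± SD, n = 4). The diets overlap in all 14, and group means are either at 31.4 or below or at 63.4 or above.

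No site of the 5 windows passed the test for a diet difference. Limma called 0 of the 345 sites at an adjusted p of 0.05, the smallest adjusted p being 0.873, where it called 0.0134% of all sites (176 of 1310003; 0.00397% higher in the lingonberry group and 0.00947% lower). At an unadjusted p below 0.05, 11 of the 345 sites (3.19%) were higher in the lingonberry group, against 1.63% of all sites, and 7 (2.03%) were lower, against 2.54%. Of the 11, 4 were in the Nfkb1 window (3.70% of its 108 sites) and 4 in the Rela window (6.90% of its 58 sites). Lower sites numbered 3 at Nfkb1 (2.78%) and 1 at Rela (1.72%). Some of the 11 rest on few tags, such as chr19:5635496 (4 MspI tags and 8 HpaII tags in all) and chr3:135270306 (6 and 5). Among the 267 sites with at least 10 MspI tags, all lingonberry samples lay above all HFD samples at 6 (2.25%), against 0.817% of all such sites, and below them at 6 (2.25%), against 1.57%. Genome-wide, clusters of 5 or more sites were higher at an unadjusted p below 0.05 more often than lower (4.84% against 2.15%). Sites with 5 or more neighbours made up 64 of the 345 sites and 148084 of all 1310003. The 11 higher sites included dense and lone ones, such as chr3:135354148 with 14 neighbours and chr3:135342272 with 0. The part of site density in these counts was not tested. Among the 87 sites with a mean of 10 HpaII tags or more, limma gave 7 below an unadjusted p of 0.05 with the m-score. With log2 tags it gave 5, and the smallest adjusted p were 0.875 and 0.847. Over all 222840 sites of that depth, the same fits gave 11380 with the m-score and 13085 with log2 tags. None of the 14 clusters was called by limma, none was below an unadjusted p of 0.05 on the m-score, and none separated the groups. Of all 29006 clusters, 0% were called.

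The window means differed little between diets. The mean m-score was 31.6 ± 2.47 against 32.6 ± 2.24 in the Saa cluster, a difference of -1.04, and 31.5 ± 1.70 against 32.9 ± 3.40 at Lcn2, a difference of -1.40. It was 36.5 ± 3.07 against 37.2 ± 1.95 at Stat3 (-0.67) and 29.6 ± 1.28 against 30.9 ± 0.739 at Nfkb1 (-1.23). Rela was the only window of the 5 with a higher mean in the lingonberry group, by 1.32. The SEs of these differences were 1.67 in the Saa cluster, 1.90 at Lcn2, 1.82 at Stat3, 0.740 at Nfkb1 and 1.21 at Rela. The difference was larger than its SE at Nfkb1 and Rela and smaller in the other windows. Over all 920211 sites the mean was 28.5 ± 0.399 against 29.8 ± 0.612, a difference of -1.36 (SD, n = 4 each), so the direction in 4 windows was that of the genome. These window means were not tested.

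The differences were also unlike between classes of site density. In the 5 windows, sites without a neighbour differed by -3.25, those with 1 to 4 neighbours by -0.72 and those with 5 or more by 2.02, and over all sites the same classes differed by -2.80, -1.22 and 1.95. The Rela window held 2 sites without a neighbour and 21 with 5 or more, out of 58. Its summed HpaII tags per 1000000 were 110, 110, 114 and 113 in the lingonberry group and 103, 101, 90.7 and 97.1 in HFD, without overlap. They were also higher at Nfkb1 (91.7 ± 7.63 against 88.4 ± 6.21) and Lcn2 (26.6 ± 3.56 against 25.5 ± 3.45, SD, n = 4 each). They were lower at Stat3 (71.9 ± 5.43 against 75.8 ± 6.74) and in the Saa cluster (48.4 ± 5.10 against 52.8 ± 6.31, SD, n = 4 each). The diets overlapped in these other windows. How often windows elsewhere separate the diets was not counted. Sites with 5 or more neighbours took 510133 ± 16712 tags per 1000000 in the lingonberry group and 464299 ± 25143 in HFD over the whole genome (SD, n = 4 each). Tags were also divided by a factor per sample and density class. It was the sample's tags per 1000000 at unmethylated sites of that class genome-wide, over the mean of the 8 samples. At sites without a neighbour it was 0.739 to 1.01 in the lingonberry group and 0.973 to 1.27 in HFD. Made from these same libraries, the factor takes out diet differences shared by a class by construction. The difference was then 0.84 at Rela, -0.49 at Lcn2, -0.21 at Stat3 and -0.75 at Nfkb1. In the Saa cluster it changed sign, from -1.04 to 0.36. The part of site density in the window differences and in the single-site differences was not tested.

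**Figure D4:**
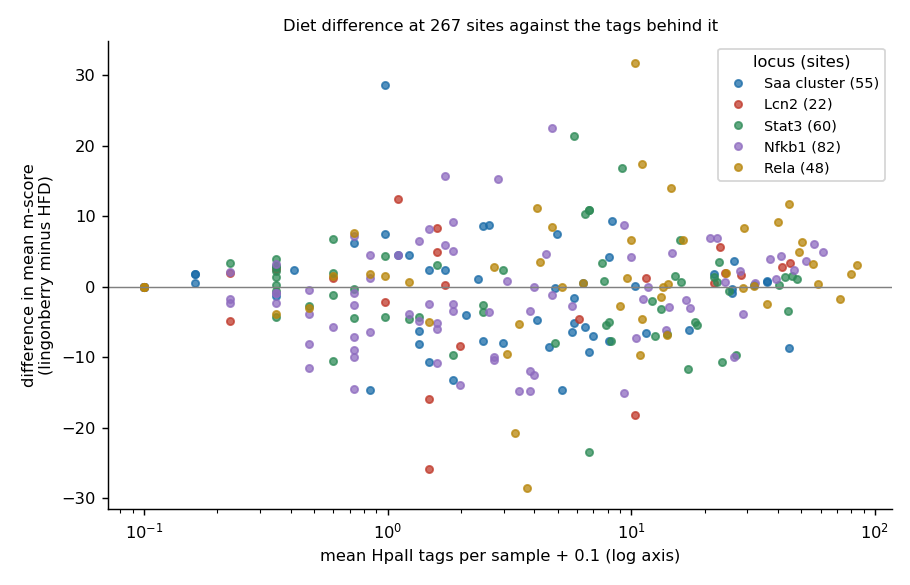
Difference in mean m-score (lingonberry minus HFD) at the 267 sites with at least 10 MspI tags against the mean HpaII tags per sample plus 0.1, on a log axis, coloured by window. The largest differences in either direction lie at about 10 tags or fewer, and the spread narrows to the right.

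The tags behind a site limited what could be seen. The median within-group SD of the m-score was 12.0 at sites with a mean of 1 to 5 HpaII tags and 12.6 at 5 to 10, and fell to 8.65 at 10 to 20 and 5.51 at 20 or more. It was 3.63 at sites under 1 tag, most of which sit at the bottom of the scale. Of the 345 sites, 130 had a mean under 1 tag. No HpaII tag at all was found at 33 sites (9.57%, against 15.0% of all sites), of which 16 had at least 10 MspI tags. At these 16, the 3 tags in all that a count of 0 allows would put the m-score at 8.16 or less, for counting error only. Over all samples together they therefore read as methylated at this depth. That limit pools the samples, and none was made for each diet. Divided tags were present at 27 sites (7.83%, against 11.5% of all sites), 13 of them in the Saa cluster.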

How the data were processed

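HELP-tagging was run on liver DNA of 8 mice, 4 per diet. Each deposited file lists, per HpaII site, an m-score and a value named conf, per the file headers. The m-score is a score from 0 to 100 deposited by the authors. The conf signal, also deposited by the authors, behaved as the length of the vector formed by HpaII and MspI tags, and the m-score as its angle, both worked out from the values. HpaII tags were recovered as conf times the sine of the angle. They were whole within 0.02 at 96.6% to 97.1% of sites above 0, and other values were read as tags divided between sites. All files shared 1 MspI reference scaled to each file's HpaII total. The submitters' processing notes name mm9 and CASAVA, with no role, while aligner and filters on tags are not stated there. No unique molecular identifiers are named, so intervals and floors cover counting error only.

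Limma 3.58.1 (R 4.3.3) was fitted on the m-score of all 1310003 sites listed in the 8 files, with a mean trend, Benjamini-Hochberg adjustment and a threshold of 0.05. The same fit was made on means of clusters (at least 5 sites, gaps of at most 500 bp). A run on simulated tags covered only the 222840 sites with a mean of 10 HpaII tags or more. It held counting error and large changes only, so it does not speak for the fit on all sites. Of the clusters that touch the windows, 1 lies only partly inside them and was left out. Window means used sites with at least 10 MspI tags and were not tested. Tags per 1000000 used a pseudocount of 0.5 on the log2 scale. Members, lists and tests were chosen with earlier results of these data known. The rule for named sites was the site with the most HpaII tags and the site with the smallest p in each window, called sites, and every cluster. All other named sites were chosen after their values were seen. These include the promoter sites, the sites without neighbours, those whose groups did not overlap and the site with the largest difference. The labels give no batch or pairing, and all files name the same sequencing lane. A list of other acute-phase genes was not analysed here, as no annotation of mm9 was used. Replicates are mice by the study's design, with no further detail on each.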

Additional observations from a re-analysis of the deposited data

Results flagged for a closer look

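Each set of 4 values was examined for a sample far from the other 3, by Dixon's ratio of the gap to the range at its 95% critical value. Of 80 sets, 8 met this, where chance would give about 4. In the Rela promoter cluster, 1 HFD sample had a mean m-score of 63.4 and the other 3 lay from 71.3 to 72.5. In the Lcn2 window, 1 HFD sample had 75.4 in the cluster of 7 sites (others 66.8 to 68.2) and another had 19.3 in the cluster of 5 sites (others 8.71 to 9.41). At chr2:32237595, 1 HFD sample had 63.0 and the others 72.5 to 74.1, so the gap between diets there is narrowed by that sample. At chr11:100753219 in the Stat3 window, 1 HFD sample had 15.0 and the others 5.38 to 6.44. At the Saa1 and Saa2 sites before the start, which share tags, the same HFD sample had 66.9 and 60.4, against 80.1 to 82.4 and 78.9 to 81.3. At the 1110008P14Rik site 11 bases after the start, with 6 MspI tags, 1 lingonberry sample had 19.02 and the others 70.3 to 78.9.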

How the results depend on the processing

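No paired analysis was possible because the labels give no pairing, the replicate numbers being only names in accession order. The number of sites called genome-wide, 176, depended on the settings. It was 90 with at least 10 MspI tags, 0 with at least 50, 0 at sites with a mean of 10 HpaII tags or more, 1 on log2 tags at those sites, 316 without the mean trend and 216 to 699 with each replicate left out in turn. Leaving out any library but the fourth of the lingonberry group raised it by over 1.5 times. Within the windows the count was 0 to 1 with a replicate left out, and 0 under the other settings. The site called, chr3:135309019 without the third HFD replicate (limma adjusted p 0.00126), rests on 1 HpaII tag in each of the 3 HFD libraries that remain and none in the lingonberry group.

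With at least 50 MspI tags, the window differences were 4.97 at Lcn2 (1 site), 1.37 at Nfkb1 (9 sites), 3.40 at Rela (8 sites), 0.33 at Stat3 and -2.67 in the Saa cluster, with a change of sign at Lcn2, Nfkb1 and Stat3. Leaving out each replicate gave -1.87 to 0.0033 in the Saa cluster, -2.48 to 0.13 at Lcn2, -2.17 to 0.12 at Stat3, -1.69 to -0.73 at Nfkb1 and 0.71 to 2.16 at Rela. Clusters whose sign changed on log2 tags were Rela 2 (0.0068), Rela 3 (0.11), Lcn2 1 (0.12) and Nfkb1 2 (-0.059), numbered in map order. With replicates left out, the difference ran from -3.26 to 1.26 in Rela 2, -1.51 to 3.58 in Rela 4, -2.90 to 0.54 in Lcn2 1, -0.72 to 3.29 in Lcn2 2, -1.03 to 3.75 in Nfkb1 2 and -1.84 to 2.19 in the Saa cluster 1. It ran from -1.28 to 2.71 at chr11:100800777 and from -1.82 to 9.46 at chr3:135354378. Neither these changes nor their cause was tested. Of the other values for named sites and clusters, 202 kept their direction and their side of the threshold.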
